A study of Homo sapiens with 8 samples.

Results

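The calcitonin receptor family consists here of 2 receptors, CALCR and CALCRL, and 3 receptor activity-modifying proteins, RAMP1, RAMP2 and RAMP3. The members were taken by gene symbol, and all 5 were found among the 26475 genes of the count table. The RNA came from BT474, a long-established line of human breast carcinoma cells in which ERBB2 is amplified, in 8 samples. Of these, 4 were labelled NPY1R high and 4 NPY1R low, NPY1R being the gene of the neuropeptide Y receptor Y1. All 8 were seeded below confluence in 6-well plates, and no drug, genotype change or other agent is named for either group, although the series concerns cells that tolerate lapatinib. The labels do not give how high and low cells were separated, nor whether the replicates were separate cultures, so p-values measure the spread between these samples, which may be technical. The family was chosen by the difference in its counts between high and low samples, which was already known. Its own values are therefore a description and carry no p-value, and the number of members called by the fit across all genes is given once, beside the share of all genes.

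CALCR and CALCRL are G protein-coupled receptors of the secretin family, and both signal largely through the stimulatory G protein, adenylyl cyclase and cyclic AMP. CALCR alone binds calcitonin, the peptide that lowers blood calcium by restraining osteoclasts, and together with a RAMP it becomes a receptor for amylin. CALCRL needs a RAMP to reach the cell surface, where RAMP1 makes it the receptor for calcitonin gene-related peptide (CGRP) and RAMP2 or RAMP3 make it a receptor for adrenomedullin. CALCRL, RAMP2 and RAMP3 are known for their part in blood and lymph vessel endothelium.

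CALCR was the only member with more than a trace of RNA, and it was the member with a wide gap between the groups. RAMP1 had a few counts in every library. CALCRL, RAMP2 and RAMP3 each had at most 1 count in any library. Total expected counts (reads assigned to a gene by estimation) ranged from 18025648 to 30609791 per library. Values are given in CPM, counts scaled to library size after TMM, a trimmed-mean correction for library composition. NPY1R, which checks the labels, had 17256 to 28986 counts in the high libraries and 2028 to 2709 in the low libraries. All 9 luminal epithelial markers listed were tested, of which 2 rose and 1 fell by edgeR. Among all 14008 tested genes, 5.78% rose and 7.81% fell. The estrogen receptor gene ESR1 (log2 0.59, SE 0.05, adjusted p 7.23e-05) and GATA3 (0.60, SE 0.11, 0.00616) were higher, and EPCAM (-0.30, SE 0.05, 0.00436) was lower. The other 6 did not pass, with KRT8 at 1511 ± 139.6 CPM in the high and 1428 ± 209.5 CPM in the low libraries (SD of 4 libraries).

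CALCR, the calcitonin receptor, had 400, 411, 422 and 229 counts in NPY1R high replicates 1 to 4. It had 48, 50, 44 and 51 counts in NPY1R low replicates 1 to 4. In CPM the high libraries had 13.7, 15.3, 15.3 and 12.6, and the low libraries 1.61, 1.75, 2.01 and 2.00. Every high library stood above every low library. The mean was 14.2 ± 1.3 CPM in the high and 1.84 ± 0.198 CPM in the low libraries (SD of 4 libraries). The fitted log2 difference was 2.95 (SE 0.13), or 7.73-fold. Between replicates 1 and 2 alone the log2 ratio of mean CPM was 3.11, and between replicates 3 and 4 alone it was 2.80. In bulk RNA, more cells that express CALCR and more CALCR RNA per cell cannot be told apart. For each CALCR count there were 47.6 to 75.4 NPY1R counts in the high libraries and 46.1 to 56.4 in the low libraries, so this ratio overlapped between the groups.

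**Figure D1:**
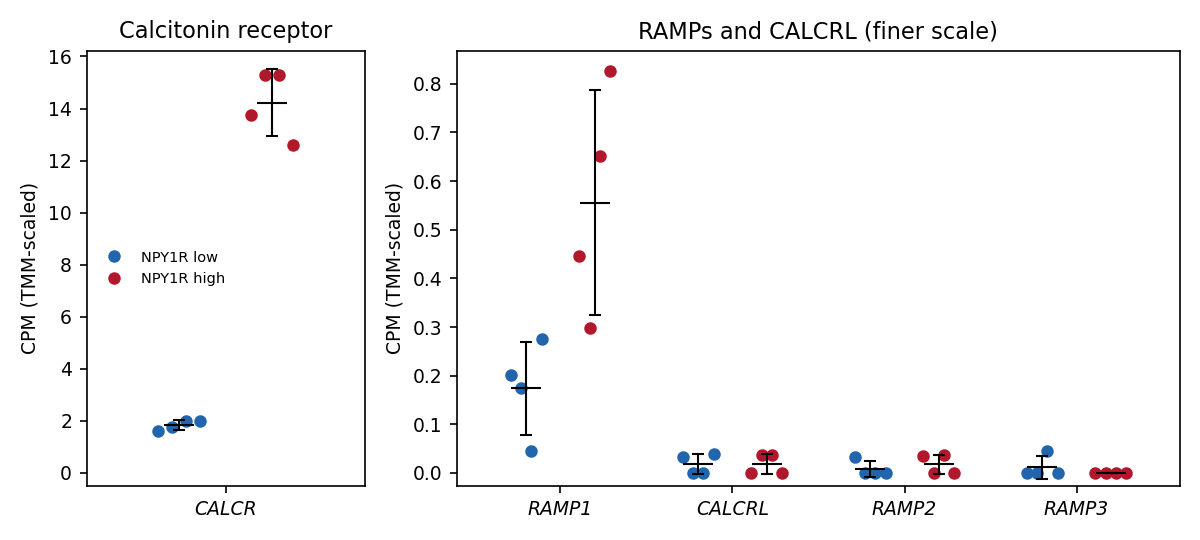
Abundance of the 5 family members in each library, in CPM after TMM scaling, with CALCR on the left and the other members on a finer scale on the right. Points are libraries (blue, NPY1R low; red, NPY1R high), and bars show the mean and SD of 4 libraries. CALCR lies at 12.6 CPM or above in all high libraries and at 2.01 CPM or below in all low libraries, while the other members stay below 1 CPM.

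RAMP1, the partner that turns CALCRL into the CGRP receptor and CALCR into an amylin receptor, had 13, 8, 18 and 15 counts in NPY1R high replicates 1 to 4. In NPY1R low replicates 1 to 4 it had 6, 5, 1 and 7. The groups did not overlap, but NPY1R high replicate 2 (0.297 CPM) and NPY1R low replicate 4 (0.275 CPM) were nearly equal. The mean was 0.555 ± 0.231 CPM in the high and 0.174 ± 0.0955 CPM in the low libraries (SD of 4 libraries), a ratio of 3.19. This gene did not pass the filter on low counts. Its log2 ratio was 0.98 within replicates 1 and 2 and 2.20 within replicates 3 and 4.

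CALCRL had 2 counts over the 4 high libraries and 2 over the 4 low libraries. RAMP2 had 2 counts in the high group and 1 in the low group, and RAMP3 had 0 and 1. A count of 0 allows up to 3 counts in a library, which is 0.101 to 0.165 CPM at these depths and covers counting error only. All 3 genes were at or under that limit in every library, so no fold is given, and a difference was not detectable at this depth. RAMP1 thus made up 54 of the 56 RAMP counts in NPY1R high and 19 of the 21 in NPY1R low. These pooled counts take no account of transcript length. NPY1R low replicate 3 had 2 RAMP counts, of which 1 was RAMP1. RAMP2-AS1, an antisense RNA beside RAMP2, had 7 counts in each group.

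Of the 5 members, 1 (CALCR) passed the filter and had an adjusted p under 0.05 when edgeR tested all genes. Among all 14008 tested genes 13.6% did so, 5.78% as higher and 7.81% as lower in NPY1R high. Without a filter on low counts, 1 of the 5 again passed, against 8.65% of 19758 genes, 4.6% as higher. Groups that did not overlap were seen for CALCR and RAMP1, both higher in NPY1R high, and for 6.87% of the 19758 genes with a count in that direction. Among tested genes 20.2% did not overlap, 8.77% as higher and 11.4% as lower. Since this contrast was known when the family was picked, nothing is read from these counts.

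Levels of different genes were compared per length, as CPM divided by the median length in kilobases of a gene's coding transcripts. CALCR, with a median transcript of 3554 bases, had 4.00 ± 0.365 CPM per kilobase in NPY1R high and 0.519 ± 0.0556 in NPY1R low (SD of 4 libraries). RAMP1, with 796 bases, had 0.698 ± 0.291 and 0.219 ± 0.120 CPM per kilobase (SD of 4 libraries). In NPY1R high the lowest CALCR level per length (3.55) lay above the highest RAMP1 level (1.04). In NPY1R low the lowest CALCR level (0.453) also lay above the highest RAMP1 level (0.346). RAMP1 in turn was above CALCRL, RAMP2 and RAMP3 in NPY1R high, where its lowest level was 0.374 CPM per kilobase and theirs reached at most 0.0632. In NPY1R low its lowest level, 0.0575, lay within their range, which reached 0.0819, so those neighbours in the order did not differ beyond their spread. CALCRL, RAMP2 and RAMP3 could not be ordered among themselves in either group.

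Per length, CALCR exceeded RAMP1 by 6.89, 11.5, 5.25 and 3.42 times in NPY1R high replicates 1 to 4. In NPY1R low replicates 1 to 4 the ratio was 1.79, 2.24, 9.85 and 1.63. The value of 9.85 rests on the single RAMP1 count of that library, and with it the groups overlap. Among 13621 tested genes with a length, 70.7% had a higher level per length than CALCR in NPY1R high and 91.4% in NPY1R low.

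CALCR lies on chromosome 7 from 93424486 to 93574724 in RefSeq's annotation of GRCh38.p14 and is read from the minus strand. The submitters' processing notes name hg38, which is the same assembly. RefSeq's promoter windows give 2 start sites for CALCR, and gene counts do not separate them. The 250 bases before each are shown because expression of CALCR is where the family differs between the groups. The window before the outer start site covers chr7:93574725-93574974, and that before the inner one, which lies within the gene, covers chr7:93559811-93560060. The third window, chr7:93890754-93891003, precedes TFPI2, the nearest tested gene upstream of CALCR, which is read from the same strand. Each is written 5′ to 3′ on the minus strand, with matches to the searched motifs in capitals.
CALCR outer: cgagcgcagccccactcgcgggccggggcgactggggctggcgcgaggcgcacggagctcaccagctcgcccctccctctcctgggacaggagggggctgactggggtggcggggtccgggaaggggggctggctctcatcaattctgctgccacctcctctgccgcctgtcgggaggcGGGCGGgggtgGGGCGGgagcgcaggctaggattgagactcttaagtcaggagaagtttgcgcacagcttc
CALCR inner: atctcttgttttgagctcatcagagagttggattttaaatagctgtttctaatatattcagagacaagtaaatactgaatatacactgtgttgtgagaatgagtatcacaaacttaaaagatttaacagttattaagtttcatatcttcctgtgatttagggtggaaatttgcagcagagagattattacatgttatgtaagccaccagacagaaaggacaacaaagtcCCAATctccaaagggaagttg
TFPI2: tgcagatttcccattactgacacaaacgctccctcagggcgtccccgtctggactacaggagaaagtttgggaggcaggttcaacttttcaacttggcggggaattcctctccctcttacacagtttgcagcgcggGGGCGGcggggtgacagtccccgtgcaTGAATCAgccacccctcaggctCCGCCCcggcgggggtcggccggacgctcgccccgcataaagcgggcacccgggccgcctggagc
The outer CALCR window was 70.8% G and C with 20 CG dinucleotides. The inner window was 34.0% G and C with 0. TFPI2's was 64.4% with 20, and the median of all 35116 RefSeq promoter windows of this length was 58.0%.

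Both strands were searched for 9 motifs. The GC box (GGGCGG), a site for Sp1-type factors, occurred at 2 places before the outer CALCR start and at 2 before TFPI2, and 42.6% of all windows held it. The CCAAT box (CCAAT) occurred once before the inner CALCR start, against 32.0% of windows. A loose form of the AP-1 site (TGANTCA, with any base in the middle) occurred once before TFPI2, as TGAATCA, against 6.57% of windows. No match was found in these windows for the cyclic AMP response element (TGACGTCA, held by 1.65% of all windows) or its core (TGACG, 21.2%, which is part of the full element). The same held for the palindromic estrogen response element (0.0399%) and for 1 arm of it (AGGTCA, 12.1%, which overlaps the full element). Neither the palindromic progesterone receptor element (0.00285%) nor the TATA box (TATAAA, 10.7%) was matched. These letters were searched in 250 bases only, and a match or its absence says nothing of binding.

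The genes around each member were read from the same fit, taking the 5 nearest tested genes on each side. Around CALCR, 5 of 10 passed the threshold as higher in NPY1R high and 0 as lower, with a median log2 change of 0.19. Across chromosome 7, 42 of 680 tested genes (6.18%) were higher. TFPI2, a secreted inhibitor of serine proteases whose gene lies 310.7 kb away, had 3.33, 4.13, 3.91 and 4.30 CPM in NPY1R high replicates 1 to 4. It had 0.503, 0.911, 1.42 and 0.825 CPM in NPY1R low replicates 1 to 4, so every high library stood above every low library. TFPI2 rose by a log2 of 2.12 (SE 0.26; edgeR quasi-likelihood test, adjusted p 0.000487).

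On the other side, CDK6, the kinase that drives entry into S phase with D-type cyclins, lies 587.9 kb away. It rose from 29.7 ± 5.92 to 77.9 ± 19.4 CPM (SD of 4 libraries), a log2 change of 1.39 (SE 0.19) with an edgeR adjusted p of 0.000896. The antiviral gene SAMD9 rose by 1.09 (SE 0.17), the imprinted retrotransposon-derived gene PEG10 by 0.58 (SE 0.06), and VPS50, which acts in endosome recycling, by 0.26 (SE 0.06). The other 5 neighbours did not pass. They include BET1, which lies next to TFPI2 among tested genes, with a log2 change of -0.03 (SE 0.11), and HEPACAM2, with -1.23 (SE 0.41).

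**Figure D2:**
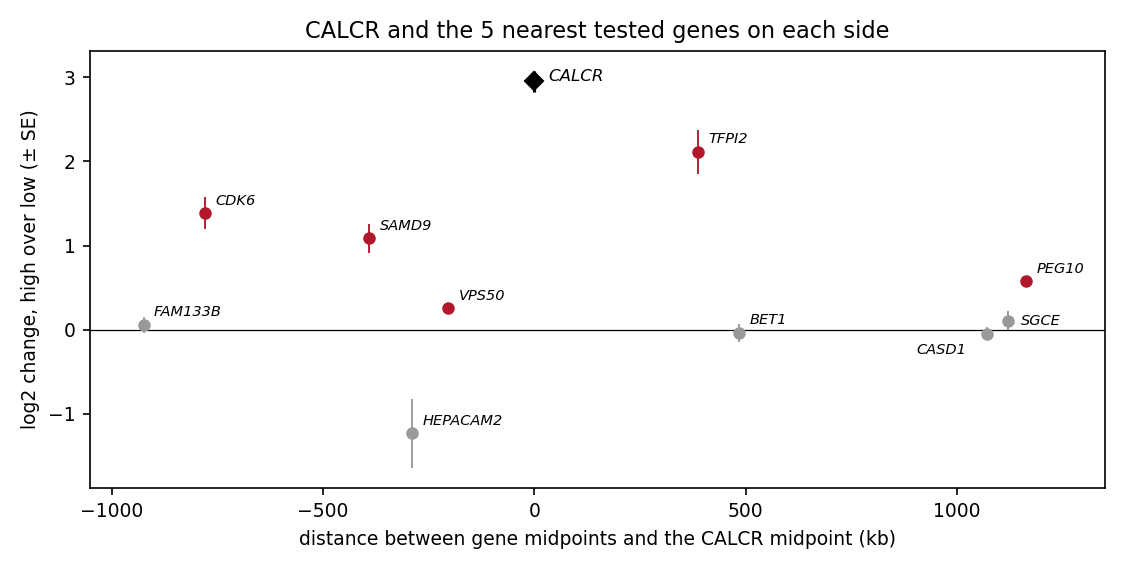
Log2 change between NPY1R high and NPY1R low (± SE) of CALCR and the 5 nearest tested genes on each side, against the distance of each gene's midpoint from that of CALCR in kb. Red points have an adjusted p under 0.05, grey points do not, and the black diamond is CALCR. Genes that passed lie among genes that did not, with TFPI2 at 2.12 and BET1 at -0.03 side by side.

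The microRNA genes MIR489 and MIR653, which lie inside CALCR on the same strand, had 0 counts in all 8 libraries. MIR4652, between CALCR and TFPI2, also had 0. Whether these libraries could capture such short RNAs is not given in the sources used here, so 0 counts do not show absence. RefSeq also places a long non-coding RNA gene inside CALCR, and how the counting treated strand is not given in the sources used here, so reads of an overlapping transcript cannot be told apart from those of CALCR.

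Fewer neighbours of the other members passed, a difference that was not itself tested. Around CALCRL, 2 of 10 were higher and 1 lower. On the log2 scale ZNF804A was at 2.64 (SE 0.50) and the iron exporter SLC40A1 at 0.50 (SE 0.08). The collagen gene COL5A2 was at -0.79 (SE 0.08). ZNF804A, SLC40A1 and COL5A2 lie 2402, 2112 and 1584 kb from CALCRL. ZNF804A had 21 to 43 counts in the high libraries and 0 to 9 in the low ones. It entered the test only through NPY1R high, so nothing is read from its call. Around RAMP1, 1 of 10 passed, the small GTPase gene RAB17 at 0.37 (SE 0.09). Its call was lost without NPY1R high replicate 1 (edgeR adjusted p of 0.0594) and with the replicate number as a block (0.0510). Around RAMP2, 0 of 10 passed in edgeR's quasi-likelihood test.

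Around RAMP3, 2 of 10 passed, the adenylyl cyclase gene ADCY1 at 0.72 (SE 0.12) and IGFBP3, which binds insulin-like growth factors, at 3.01 (SE 0.76). IGFBP3 had 21.7, 28.5, 4.45 and 3.74 CPM in NPY1R high replicates 1 to 4 and 2.08, 3.71, 0.549 and 0.746 CPM in NPY1R low. Replicates 1 and 2 were thus higher than replicates 3 and 4 in both groups. Its adjusted edgeR p was 0.0647 without NPY1R high replicate 1, 0.0749 without NPY1R high replicate 2, 0.0617 without NPY1R low replicate 1 and 0.0786 without NPY1R low replicate 3. With limma-voom it was 0.0917, and without NPY1R low replicate 2 the log2 change of IGFBP3 was 3.65.

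The peptide ligands were present at low levels or not seen. CALCA, which encodes calcitonin and alpha-CGRP, and IAPP, which encodes amylin, had 0 counts in every library. CALCB, which encodes beta-CGRP, had 5, 3, 7 and 2 counts in NPY1R high replicates 1 to 4 and 1, 0, 1 and 0 in NPY1R low. The observed CALCB values did not overlap, as for 6.87% of genes with a count in that direction. A count of 0 in NPY1R low replicate 4 allows up to 0.118 CPM, above the 0.110 CPM of NPY1R high replicate 4. A separation is therefore not shown. CALCB counts were too low for the filter. Without the filter its adjusted p was 0.0549 in edgeR's quasi-likelihood test, and nothing is read from it.

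ADM, which encodes adrenomedullin, was the ligand gene with the most counts. It had 161, 120, 129 and 92 counts in NPY1R high and 139, 116, 135 and 134 in NPY1R low. Its levels overlapped, at 4.93 ± 0.472 and 5.04 ± 0.902 CPM (SD of 4 libraries), with a log2 difference of -0.03 (SE 0.15) whose sign changed with the scaling. ADM2, which encodes intermedin, had 3 to 8 counts in the high libraries and 7 to 17 in the low ones, and ADM5 had 12 to 15 and 13 to 15. Of the 6 ligand genes 2 were tested, and 0 passed in edgeR's quasi-likelihood test. With no filter, 4 were tested and 0 passed.

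Of the 90 genes on 6 lists of ligands, peptide processing, other receptors, coupling and cyclic AMP, 65 entered the test. By edgeR's quasi-likelihood method, 10 rose, 7 fell and 48 did not pass, and the median log2 change was -0.02, against -0.03 over all tested genes. Over all tested genes 5.78% rose and 7.81% fell. The split of all calls depended on the scaling and on the filter, with 42.5% of them higher in the main fit. The share was 56.3% under upper-quartile factors, and 53.2% under TMM with no filter.

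Among 8 enzymes that make or degrade such peptides, 6 were tested, 1 rose and 1 fell. PAM, which adds the carboxy-terminal amide that calcitonin, amylin, CGRP and adrenomedullin carry, rose from 36.6 ± 5.04 to 53.7 ± 6.17 CPM (SD of 4 libraries). Its log2 change was 0.55 (SE 0.11), with an edgeR adjusted p of 0.00882. CPE, carboxypeptidase E, which trims peptide hormone precursors, fell from 24.2 ± 1.56 to 9.33 ± 1.25 CPM (SD of 4 libraries). That log2 change was -1.37 (SE 0.11), and the groups did not overlap. MME, or neprilysin, which cleaves peptides at the cell surface, had 2.57 ± 0.814 and 2.20 ± 0.732 CPM in high and low (SD of 4 libraries) and did not pass.

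Other receptors of the secretin family, and receptors outside it that are known to bind RAMPs, made up a list of 16 genes. Of these 6 were tested, 1 rose and 1 fell. ACKR3, a scavenging chemokine receptor that also takes up adrenomedullin, rose from 32.0 ± 1.77 to 51.1 ± 2.01 CPM (SD of 4 libraries), with a log2 change of 0.68 (SE 0.06). VIPR1, a receptor for vasoactive intestinal peptide, fell from 14.4 ± 0.348 to 10.1 ± 1.07 CPM (SD of 4 libraries), with a log2 change of -0.51 (SE 0.10). GPER1, a membrane estrogen receptor, had a log2 change of 0.97 (SE 0.41) and did not pass. It had 8.73, 9.48, 4.49 and 4.46 CPM in NPY1R high replicates 1 to 4. In NPY1R low it had 5.07, 4.87, 2.65 and 1.26 CPM, so replicates 1 and 2 were above replicates 3 and 4 in both groups. Among the 16, 5 had 0 counts throughout, ADCYAP1R1, SCTR, GLP2R, CRHR1 and GHRHR.

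The tested genes that couple these receptors to the cell had a median log2 change of -0.11. Of 16 listed, 14 were tested, 2 were higher and 2 lower. GNAS, the alpha subunit of the stimulatory G protein, had 911.9 ± 13.0 CPM in the high and 982.9 ± 21.0 CPM in the low libraries (SD of 4 libraries). Its log2 difference of -0.11 (SE 0.05) did not pass, although the groups did not overlap. CRCP, the receptor component protein that aids CGRP signalling, had a log2 difference of -0.11 (SE 0.05) and did not pass either. ADRBK2, a kinase that desensitises receptors, fell by 0.66 (SE 0.12) on the log2 scale, with an edgeR adjusted p of 0.00397.

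The other 3 coupling genes past the threshold lost it when single libraries were left out. GNAI1, an inhibitory G protein subunit, rose by 0.58 (SE 0.15). Its adjusted edgeR p was 0.0543, 0.0857 and 0.0672 without NPY1R high replicate 1, 3 or 4, and 0.0910 and 0.0875 without NPY1R low replicate 1 or 2. SLC9A3R1, a scaffold that binds the RAMP3 tail, rose by 0.42 (SE 0.12). In the same edgeR test it had 0.0871, 0.0546 and 0.0803 without NPY1R high replicate 1, 2 or 4, and 0.0903 without NPY1R low replicate 3. NSF, a vesicle fusion factor, had a log2 change of -0.24 (SE 0.07). NSF was not called under 4 other scalings, nor under DESeq2 (adjusted p 0.0648). NSF was also not called with no filter, 1 CPM in 4 libraries or 10 counts in every library (edgeR adjusted p 0.114, 0.0822 and 0.0854). It was not called without NPY1R high replicate 1, 3 or 4 (edgeR adjusted p 0.108, 0.0769 and 0.211), nor without NPY1R low replicate 1, 3 or 4 (0.168, 0.0787 and 0.137).

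Cyclic AMP machinery moved in both directions. Of 34 listed genes, 28 were tested, 4 rose, 3 fell and 21 did not pass, against 5.78% and 7.81% of all 14008 tested genes. PKIB and PKIA, which encode inhibitors of the catalytic subunit of protein kinase A, rose by 0.70 (SE 0.06) and 0.48 (SE 0.07) on the log2 scale. PKIB went from 96.6 ± 6.55 to 156.7 ± 9.02 CPM (SD of 4 libraries). ADCY1, which makes cyclic AMP, rose from 6.64 ± 0.859 to 10.9 ± 0.749 CPM (SD of 4 libraries).

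PRKAR2B, a regulatory subunit of protein kinase A, had 2.10, 1.90, 1.66 and 1.98 CPM in NPY1R high replicates 1 to 4 and 5.91, 5.74, 4.44 and 4.79 CPM in NPY1R low. All high libraries were below all low ones, a log2 change of -1.45 (SE 0.15) with an edgeR adjusted p of 0.000188. PDE4D, which breaks cyclic AMP down, fell by 0.60 (SE 0.11) on the log2 scale. PDE3A, another phosphodiesterase, had 32, 20, 22 and 9 counts in NPY1R high and 5, 10, 0 and 1 in NPY1R low. Its NPY1R low level was at most 0.350 CPM, so it entered the test only through NPY1R high. Nothing is read from its call, though it counts among the listed genes that rose. Its log2 change was 2.38 (SE 0.58), with an edgeR adjusted p of 0.0227. That p was 0.0680 without NPY1R high replicate 1, 0.0514 without NPY1R high replicate 2 and 0.0548 without NPY1R low replicate 1. The log2 change itself moved to 3.30 without NPY1R low replicate 2 and to 3.01 with limma-voom.

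The remaining call was PRKACB, a catalytic subunit, with a log2 change of -0.31 (SE 0.09). It was named after its values were seen. Its edgeR adjusted p was 0.0585, 0.0972 and 0.128 without NPY1R high replicate 2, 3 or 4, and 0.0991, 0.0937 and 0.0503 without NPY1R low replicate 1, 2 or 4. Upper-quartile scaling gave 0.0541, library totals 0.0745 and TMMwsp 0.0564. With no filter the edgeR adjusted p was 0.0712, with 1 CPM in 4 libraries 0.0546 and with 10 counts in every library 0.0571.

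Among 10 genes that cyclic AMP is known to induce, 9 were tested, 2 rose and 0 fell. Over all tested genes 5.78% rose and 7.81% fell. FOS, an immediate early transcription factor, rose from 19.4 ± 2.40 to 37.5 ± 1.17 CPM (SD of 4 libraries), with a log2 change of 0.95 (SE 0.09). PPARGC1A, a coactivator of mitochondrial genes, rose from 8.43 ± 0.983 to 14.5 ± 1.28 CPM (SD of 4 libraries), with a log2 change of 0.79 (SE 0.11). NR4A1, NR4A2, SIK1, PER1, DUSP1, RGS2 and AREG did not pass, with log2 changes from -0.44 for NR4A2 to 0.28 for PER1. The list had a median log2 change of 0.07. The CRE-binding factor genes CREB1, ATF1 and CREM were at -0.06, 0.07 and -0.01 on the log2 scale and did not pass.

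**Figure D3:**
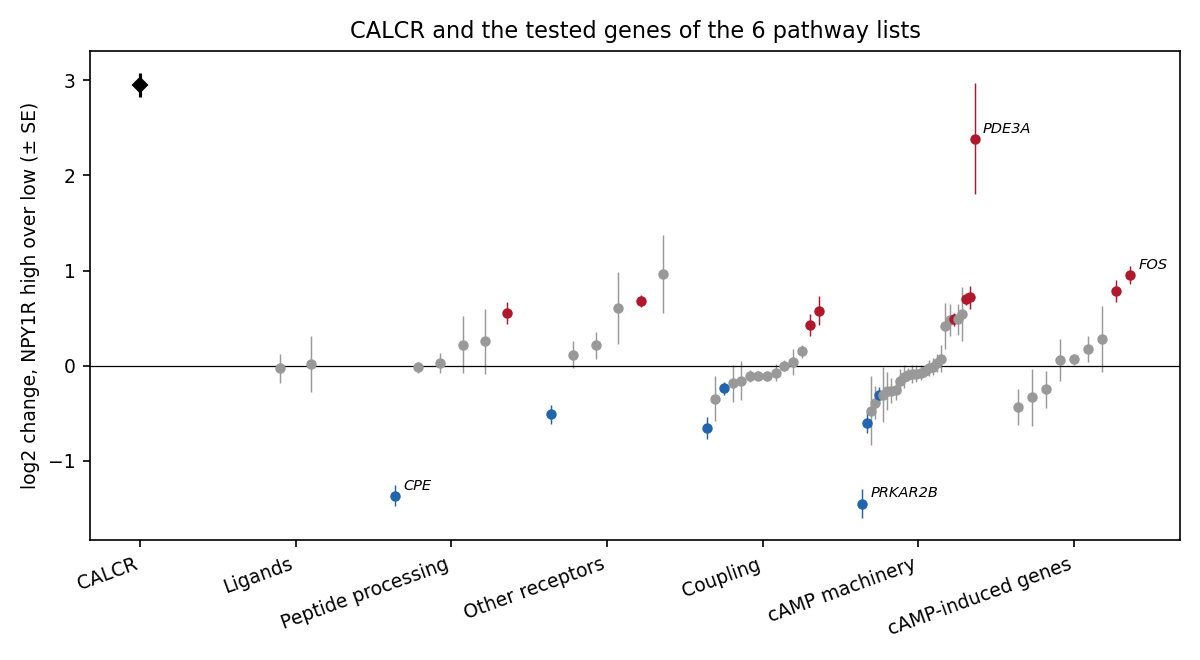
Log2 change between NPY1R high and NPY1R low (± SE) of CALCR (black diamond) and of the 65 tested genes on the 6 lists, ordered by size within each list. Red and blue points are higher and lower with an adjusted p under 0.05, and grey points did not pass. CALCR stands at 2.95, while the listed genes range from PRKAR2B at -1.45 to PDE3A at 2.38. PDE3A entered the test only through NPY1R high.

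The genes whose pattern over the 8 libraries was most like that of CALCR were MSX2, SOX6 and TMEM64. Likeness was Pearson's r of log2 CPM against CALCR, over 10441 tested genes with a mean of at least 5 CPM, and it is a description, since the 2 groups alone set most of it. MSX2, a homeobox transcription factor, had an r of 0.999 and 101.8 ± 3.61 against 54.9 ± 1.45 CPM (SD of 4 libraries). SOX6, an SRY-box transcription factor, had an r of 0.996 and 13.7 ± 0.627 against 2.40 ± 0.215 CPM. TMEM64, a transmembrane protein gene, had an r of 0.995 and 183.8 ± 19.4 against 45.2 ± 3.12 CPM. NPY1R stood at place 12 with an r of 0.991. The size of the difference was not matched, with log2 changes of 0.89 for MSX2 and 2.51 for SOX6 beside 2.95 for CALCR.

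**Figure D4:**
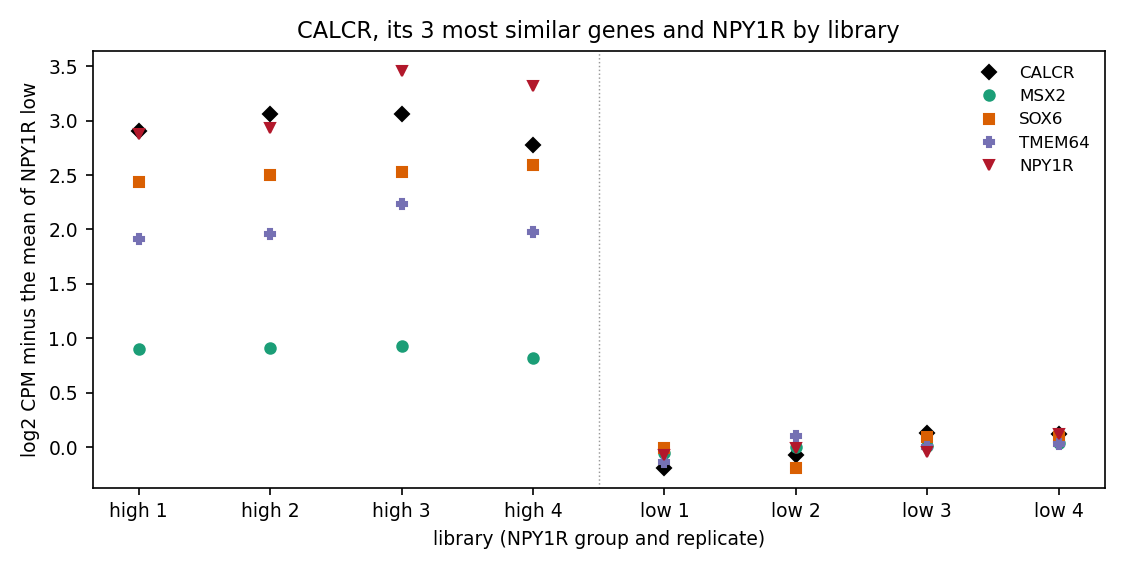
Level of CALCR, the 3 genes most like it and NPY1R in each library, as log2 CPM minus that gene's mean in NPY1R low. The dotted line separates the groups. All 5 genes lie close to 0 in NPY1R low, and CALCR and NPY1R lie near 3 in NPY1R high while MSX2 lies near 0.9.

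CALCRL, RAMP2 and RAMP3 are known from endothelium, so markers of other cell types were read beside them. Of 11 endothelial markers, TEK, TIE1 and ROBO4 had 0 counts in every library, and 2 were tested. Their summed level was 12.0 to 17.9 CPM in NPY1R high and 15.3 to 21.3 CPM in NPY1R low, and most of it was VWF, at 11.7 ± 2.82 and 16.1 ± 2.06 CPM (SD of 4 libraries). Of 7 fibroblast markers, COL1A2, PDGFRB and DCN had 0 counts, and the sum was 10.9 to 17.5 CPM in high and 10.4 to 17.5 CPM in low. Nearly all of that sum was COL1A1, at 14.1 ± 2.79 and 15.5 ± 3.36 CPM (SD of 4 libraries). Among the immune markers, CD3E had 0 counts, and the summed level was 1.60 to 2.34 and 1.74 to 3.08 CPM. Among the 5 tested markers of these lists, 0 passed in edgeR's quasi-likelihood test, and each list's ranges overlapped between the groups.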

How the data were processed

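Expected counts per gene symbol in 8 libraries were deposited by the authors, not scaled between libraries. They are estimates, since 7.97% to 8.76% of a library's values are not whole, and they were rounded before testing. STAR 2.5.2, RSEM 1.3.0 and hg38 are named in the submitters' processing notes. The annotation is not given in the sources used here. Per the labels' protocols, 200 ng of RNA entered a stranded kit. The single-sample files held the same values (0 differing), and the chi-square of replicate pairs was 5.75 to 62.2 per degree of freedom, so none was counted as a duplicate. Columns of unmatched samples numbered 0.

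Genes were filtered (filterByExpr, minimum count 10, 14008 of 26475 kept), scaled by TMM and tested with edgeR 4.0.16's quasi-likelihood test without covariates in R 4.3.3. P-values were adjusted by Benjamini-Hochberg over all tested genes, with a threshold of 0.05. Log2 CPM used a prior count of 2. DESeq2 1.42.0 and limma 3.58.1 were alternatives, beside other scalings and filters, a replicate block, a term for replicates 1 and 2 against 3 and 4, a GC offset (spline with 5 degrees of freedom) and leaving out each library. The procedure was tested on simulated counts. Lengths came from GENCODE release 29, and positions (13744 tested genes) and promoter windows from RefSeq, GRCh38.p14. CALCR, CALCRL and RAMP3 had a window. Members and lists were chosen with earlier results of these data known. Named genes are the members, NPY1R, the ligands, up to 6 called genes per other list, called neighbours and the 3 genes most like CALCR. Other genes named from the lists or among the neighbours, such as GPER1, MME, GNAS and BET1, were chosen after their values were seen.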

Additional observations from a re-analysis of the deposited data

Results flagged for a closer look

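In NPY1R low replicate 3 the ratio of CALCR to RAMP1 per length was 9.85, against 1.63 to 2.24 in the rest of that group. That library's distance from the next one took up 0.926 of the group's range, which is above Dixon's critical value for 4 samples at the 95% level. RAMP1 had 1 count in that library.

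ADRBK2, the receptor kinase gene, stood at 4.02 CPM in NPY1R high replicate 4. Its level in the remaining high libraries was 3.72 to 3.76 CPM, and the distance to the next one was 0.852 of the range. All NPY1R high libraries were below all NPY1R low libraries. Of 76 group values examined, 2 stood out in this way, and chance gives about 1 in 20, or 3.8.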

How the results depend on the processing

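Of 1155 values recomputed under 33 settings, 1055 kept their direction and their side of the threshold or stayed within the limits for counts. The CALCR log2 difference was 2.80 to 3.11 over the 26 alternatives run for it, and 2.91 to 3.04 when each library was left out. RAMP1 did not pass the filter with all 8 libraries. In those runs without a library where it did pass, its fitted log2 difference was 1.31 to 1.87. NPY1R low libraries had at most 7 RAMP1 counts, so it passed only through NPY1R high, and the range is no measure of stability. Of 32 other named genes, 23 kept direction and call under every setting run. The exceptions are GNAI1, SLC9A3R1, NSF, PDE3A, PRKACB, RAB17, IGFBP3, ADM and ADM5. ZNF804A is among the 23, but it entered the test only through NPY1R high, so this is no measure of its stability.

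Whether libraries with the same number are pairs is not settled by the labels or these values. Running numbers in the column titles alternate low and high in replicate order, and what they stand for is not given. Deviations of same-numbered libraries correlated at 0.339, 0.157, 0.0907 and 0.0178 across genes. Between libraries of different number the correlations ranged from -0.475 (NPY1R high replicate 1, low replicate 4) to 0.501 (high replicate 3, low replicate 4). The replicate block gave 805 genes higher and 1028 lower, against 810 and 1094, and ended the calls of NSF (edgeR adjusted p 0.0745) and RAB17 (0.0510). Together with the GC offset it gave 1352 higher and 1986 lower. The GC offset alone gave 1758 lower. A term that sets replicates 1 and 2 apart from 3 and 4 gave 1681 lower. Leaving out each library in turn gave 624 to 1068 higher and 625 to 1064 lower, the 625 without NPY1R high replicate 4. The lists' 10 higher and 7 lower genes then ranged from 7 to 11 and from 5 to 7, and under the other settings from 9 to 14 (GC offset) and from 5 to 9 (block and GC offset).

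Lower neighbours numbered 1, but 2 under DESeq2, 3 with the replicate block, 3 with the term, 3 with the GC offset, 4 with block and offset together, and 1 to 2 when a library was left out. ADM, which was not called, changed sign with upper-quartile factors (log2 0.0234), library totals (0.0108), TMMwsp (0.0102), no filter (0.0113), 1 CPM in 4 libraries (0.0120), 10 counts in every library (0.0120), and block and GC offset together (0.0156). It ranged from -0.12 to 0.0807 when a library was left out. ADM5, not called either, was -0.0118 with limma-voom and ranged from -0.17 to 0.15. The causes were not tested. Depth limits what can be said of CALCRL, RAMP2 and RAMP3, none of which exceeded 1 count in a library.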
